A study of Oryctolagus cuniculus with 35 samples.

Results

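The comparison set 14 lungs of rabbits given mesenchymal stromal cells (MSC) against 14 lungs of rabbits not given them, over both antibiotic arms of a pneumonia experiment. Its members were chosen from the labels and not from any measured value: 28 of the 35 lungs of the series entered it, with ceftaroline as the second factor. All 28 came from New Zealand rabbits with pneumococcal pneumonia and adverse mechanical ventilation, so the controls carry the infection and the ventilation too. The 7 NaCl lungs came from rabbits given saline. The 7 MSC lungs came from rabbits given human umbilical cord MSC intravenously at 3000000 cells per kg. The 7 ceftaroline lungs came from rabbits given the antibiotic intramuscularly at 20 mg per kg. The 7 ceftaroline plus MSC lungs came from rabbits given both at those doses. No label states outright that each lung is from a separate rabbit. Therapies were given 4 h after the bacteria, by random allocation. Lung pieces were taken at 24 h or at an earlier death, and the labels used here do not give the time for each animal. The cells are human and the hosts rabbits, so the reads were assigned to rabbit genes. The other 7 lungs, from healthy rabbits, serve as a described reference.

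MSC are adherent stromal cells that can be grown from umbilical cord, marrow or fat and are studied as a therapy for lung injury. They are known for secreted factors and vesicles that act on macrophages, neutrophils and the endothelium, among them prostaglandin E2, TSG-6 and growth factors, and for passing mitochondria to host cells. After intravenous injection most of them lodge first in the lung's capillaries and are cleared within days. The series' own title names mitochondrial function and the immune response in this pneumonia and asks what MSC do to them.

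The 28 libraries held 7611988 to 33209729 recovered reads (median 11914225), with 7611988 to 14948358 in the NaCl group, 9642813 to 11987726 in the MSC group, 11499403 to 33209729 with ceftaroline and 11137017 to 18271138 with both. The labelled tissue carried surfactant protein and type I cell transcripts: SFTPB, a surfactant protein of type II cells, was at 12452 to 92564 (median 34004) scaled reads in NaCl lungs and 12262 to 139308 (median 53756) with both therapies, and the type I marker AGER was tested too. SFTPC, ABCA3 and SFTPD were listed at 0 in every library. Scaled reads are reads brought to a common library size of 12289013. Of 23669 genes in the tables, 10311 were at 0 in all 28 libraries. Titles of NaCl replicates 5 to 7 and MSC replicates 6 and 7 end in PG, a mark the labels do not explain. No library with ceftaroline carries it. On a first principal component holding 34.1% of the variance, MSC replicate 6, ceftaroline replicate 7 and ceftaroline plus MSC replicates 3, 5 and 6 stood apart from the other 23. The same 5 libraries were the only ones with fewer than 30 scaled reads of IL6. Of these 5, all but ceftaroline replicate 7 were given MSC, 3 of them with the antibiotic too, and none received saline alone. On the second component, holding 16.9% of the variance, PG libraries NaCl replicates 5, 6 and 7 and MSC replicate 7 lay lowest. They were at -73.6, -63.5, -58.7 and -56.1. The other PG library, MSC replicate 6, was at -7.59, and no library without the mark lay below -26.6.

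Over both arms, lungs given MSC had less LGALS3, HMOX1, TIPARP, GADD45A and HDGF mRNA, and more SPR, PDGFRB, RASL12 and TCN2 mRNA. Of 10107 genes tested by limma, 46 (0.455%) passed at an adjusted p under 0.05, 22 higher (0.218%) and 24 lower (0.237%) with MSC. The changes were moderate, with a median size of 0.83 on the log2 scale and a range of 0.36 to 1.70. At an unadjusted p under 0.05 stood 2686 genes (26.6%), these 46 included, 1277 higher (12.6%) and 1409 lower (13.9%). The median log2 fold change of all genes was -0.00245 and 49.8% of the estimates were above and 50.2% below 0. The 46 genes sit close to the threshold, with a lowest adjusted p of 0.0219 and most at 0.0475.

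The count of 46 turned on single libraries. It was 0 without NaCl replicate 3 or without MSC replicate 6, and 1 without ceftaroline replicate 1. It was 2 without NaCl replicate 2, 4 or 6, without MSC replicate 2, 3 or 4, without ceftaroline replicate 2 or 6, or without ceftaroline plus MSC replicate 3, 5 or 6. It was 3 without NaCl replicate 5 or MSC replicate 1, and 6 without NaCl replicate 7. It was 130 without MSC replicate 5, 898 without MSC replicate 7 and 631 without NaCl replicate 1. Among the ceftaroline libraries it was 482 without replicate 3, 45 without replicate 4, 364 without replicate 5 and 1244 without replicate 7. Among those with both therapies it was 317, 499, 309 and 160 without replicates 1, 2, 4 and 7. In each of these fits all 46 genes kept their direction and an unadjusted p under 0.05, and their highest adjusted p was 0.0907. Their choice for a low p in nearly the same libraries largely fixes that direction and that p. Without the 5 libraries that stood apart, 2 genes passed, and 8.76% were higher and 9.32% lower at an unadjusted p under 0.05. Without the 5 PG libraries 2 passed as well, and 11.5% were higher and 13.8% lower at that p.

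**Figure D1:**
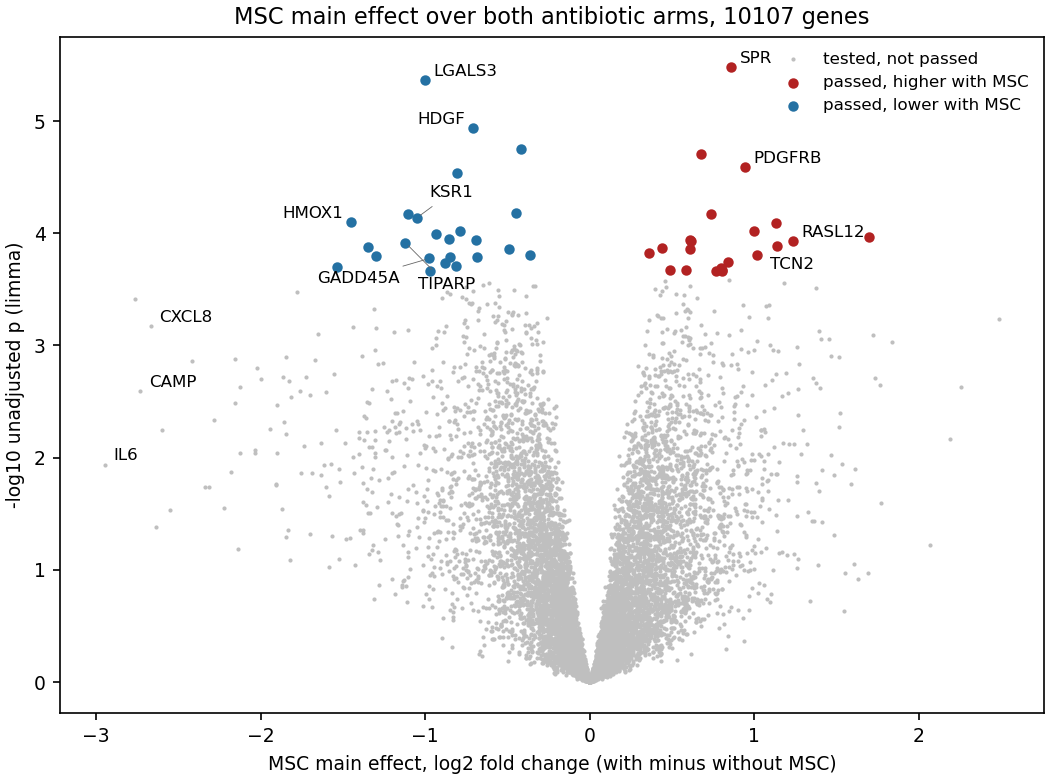
Each point is 1 of 10107 genes, with the log2 fold change of lungs with MSC against lungs without on the x axis and minus log10 of the unadjusted limma p on the y axis. Red and blue points are the 22 higher and 24 lower genes that passed. IL6, CXCL8 and CAMP lie further left than any passed gene but below the threshold.

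LGALS3 (ENSOCUG00000002924) encodes galectin-3, a galactose-binding lectin made by macrophages and epithelium. Without ceftaroline, LGALS3 ran from 17629 to 54454 (median 26222) scaled reads in NaCl lungs and from 7561 to 20161 (median 14073) in MSC lungs. With ceftaroline, LGALS3 ran from 13997 to 22104 (median 17481) in lungs given the antibiotic alone and from 7332 to 15846 (median 10037) in lungs given both therapies. The ranges overlapped at their edges in each arm. All 14 MSC lungs lay below the median of the lungs without MSC of their own arm, called their arm's median below. LGALS3 fell, with a log2 fold change of -1.0 (adjusted p = 0.0219, SE 0.18), the gene with the lowest p among those that fell. In the 23 libraries that did not stand apart, its estimate was -1.09 (adjusted p = 0.0464). In a piece of whole lung, fewer cells of a type and less RNA per cell cannot be told apart, here and in all results that follow.

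HMOX1 (ENSOCUG00000010633), the inducible haem oxygenase, had the largest fall among genes with a symbol and at least 50 scaled reads on average. Without ceftaroline, HMOX1 ran from 10916 to 61463 (median 21391) scaled reads in NaCl lungs and from 2156 to 18739.6 (median 7364) in MSC lungs. With ceftaroline, HMOX1 ran from 3632 to 18062 (median 10184) in antibiotic-only lungs and from 2238 to 10104 (median 3633) with both. MSC replicate 7 and 1 other MSC lung reached into the NaCl range, and 4 of the 7 lungs given both lay within the antibiotic-only range. The log2 fold change was -1.45 (adjusted p = 0.0475, SE 0.31), and 14 of 14 MSC lungs were below the median of their arm's lungs without MSC. Transcripts of red cells, a source of haem, had a summed level of 47934 to 1262810 (median 275187) scaled reads in NaCl lungs, 36094 to 227867 (median 107222) in MSC lungs, 66332 to 318153 (median 133089) in ceftaroline lungs and 45116 to 211636 (median 137851) with both. Of the 9 listed red cell genes 3 were at 0 (SPTB, KLF1 and AHSP), none of the 6 tested passed, and their part in the HMOX1 result was not tested.

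TIPARP (ENSOCUG00000014910), an ADP-ribosyltransferase induced by the aryl hydrocarbon receptor, ran without ceftaroline from 2411 to 6876 (median 6065) scaled reads in NaCl lungs and from 914 to 4979.9 (median 2158) in MSC lungs. With ceftaroline, TIPARP ran from 1024 to 4290.3 (median 2223) without MSC and from 830.0 to 1930.4 (median 1106) with MSC. MSC lungs spread widely in the first pair of groups, and in the second 6 of the 7 lungs given both were lower than every antibiotic-only lung but 1. TIPARP fell, with a log2 fold change of -1.12 (adjusted p = 0.0475, SE 0.25), and all 14 MSC lungs were below their arm's median.

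GADD45A (ENSOCUG00000008954), a growth arrest gene induced by stress and DNA damage, ran from 4734 to 9148 (median 6393) scaled reads in NaCl lungs and from 1727 to 5864 (median 3474) in MSC lungs. With ceftaroline, GADD45A ran from 1406 to 6726 (median 4346) without MSC and from 1421 to 2988 (median 1844) with MSC. The lowest single lung was one given the antibiotic alone, although 5 of its group lay above every lung given both. The log2 fold change was -0.98 (adjusted p = 0.0475, SE 0.22).

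HDGF (ENSOCUG00000010664), a growth factor of epithelium and vessels, separated the groups fully in 1 arm. It ran from 919 to 1926 (median 1244) scaled reads in NaCl lungs and from 484 to 868 (median 715) in MSC lungs, with no overlap. With ceftaroline, HDGF ran from 554 to 1022 (median 799) without MSC and from 362 to 874 (median 626) with MSC, and these ranges overlapped. HDGF fell, with a log2 fold change of -0.71 (adjusted p = 0.0392, SE 0.13).

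The other named genes that fell were KSR1 (a scaffold of the RAF-MEK-ERK cascade, -1.05 with SE 0.23), TM4SF5 (a membrane protein of the tetraspanin-like L6 family, -1.35 with SE 0.30), KLHL21 (a substrate adaptor of a cullin ubiquitin ligase, -0.93 with SE 0.21), ZHX2 (a transcriptional repressor, -0.85 with SE 0.19) and PRNP (the prion protein, -0.85 with SE 0.20). Each had an adjusted p of 0.0475. TM4SF5 was scarce, at 31.0 to 333 (median 91.4) scaled reads in NaCl lungs and 10.6 to 28.4 (median 14.2) with both therapies. Of these, KLHL21 was below its arm's median in 12 of 14 MSC lungs and the rest in 13 or 14.

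SPR (ENSOCUG00000000835), sepiapterin reductase, makes tetrahydrobiopterin, the cofactor of nitric oxide synthases. Without ceftaroline, SPR ran from 119 to 281 (median 177) scaled reads in NaCl lungs and from 289.9 to 512 (median 392) in MSC lungs. With ceftaroline, SPR ran from 201 to 546 (median 259) without MSC and from 301 to 599 (median 428) with MSC. The first pair did not overlap, and in the second the highest antibiotic-only lung, replicate 4, stood far above the rest of its group. SPR had the lowest p of all genes tested and rose by 0.86 (adjusted p = 0.0219, SE 0.15) on the log2 scale, with 14 of 14 MSC lungs above their arm's median. GCHFR, which regulates the first enzyme of the same pathway, was looked up after the values were seen and had also passed (0.59, SE 0.14). GCH1, that first enzyme, had an estimate of -0.55 (SE 0.41), PTS 0.24 (SE 0.16) and QDPR, which recycles the cofactor, 0.49 (SE 0.22), and these 3 did not pass.

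PDGFRB (ENSOCUG00000001725) is the platelet-derived growth factor receptor of pericytes and other mural cells. Without ceftaroline, PDGFRB ran from 606 to 2246 (median 1435) scaled reads in NaCl lungs and from 1694 to 6236 (median 2423) in MSC lungs. With ceftaroline, PDGFRB ran from 1219 to 3561 (median 2524) without MSC and from 3337 to 5285 (median 3842) with MSC. Lungs given both were tightly grouped at the top and met the antibiotic-only range with 1 lung of each group. PDGFRB rose by 0.95 (adjusted p = 0.0416, SE 0.19) on the log2 scale, with 14 of 14 MSC lungs above their arm's median. PDGFB, a ligand of this receptor, did not pass (0.16, SE 0.22).

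RASL12 (ENSOCUG00000010729), a small Ras-like GTPase, showed the largest rise under the naming rule. It ran from 22.1 to 157 (median 104) scaled reads in NaCl lungs and from 111 to 373 (median 276) in MSC lungs, where the lowest, replicate 7, lay inside the NaCl range. With ceftaroline, RASL12 ran from 40.1 to 258 (median 178) without MSC and from 194 to 523 (median 273) with MSC. The log2 fold change was 1.24 (adjusted p = 0.0475, SE 0.28). TCN2 (ENSOCUG00000009352), the plasma carrier of vitamin B12, ran from 229 to 934 (median 504) in NaCl lungs and from 689.7 to 2200.4 (median 1262) in MSC lungs. With ceftaroline, TCN2 ran from 359.7 to 1532 (median 1083) without MSC and from 999 to 1924 (median 1515) with MSC. The lowest MSC lungs, replicates 5 and 7, lay inside the NaCl range, and 5 of the 7 lungs given both lay within the antibiotic-only range. TCN2 had a log2 fold change of 1.02 (adjusted p = 0.0475, SE 0.23).

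The other genes that rose under the naming rule were C1QTNF2, an adipokine-like secreted protein (1.14, SE 0.26), HHAT, which palmitoylates hedgehog ligands (1.13, SE 0.25), ZMYM3, a zinc finger protein of chromatin (1.0, SE 0.22), EXOC3L1, a relative of an exocyst subunit (0.84, SE 0.19), ACAD10, an acyl-CoA dehydrogenase family member (0.80, SE 0.19), and NME6, a mitochondrial nucleoside diphosphate kinase family member (0.80, SE 0.19). ZMYM3 was above its arm's median in 12 of 14 MSC lungs, and the other 5 in 13 or 14.

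**Figure D2:**
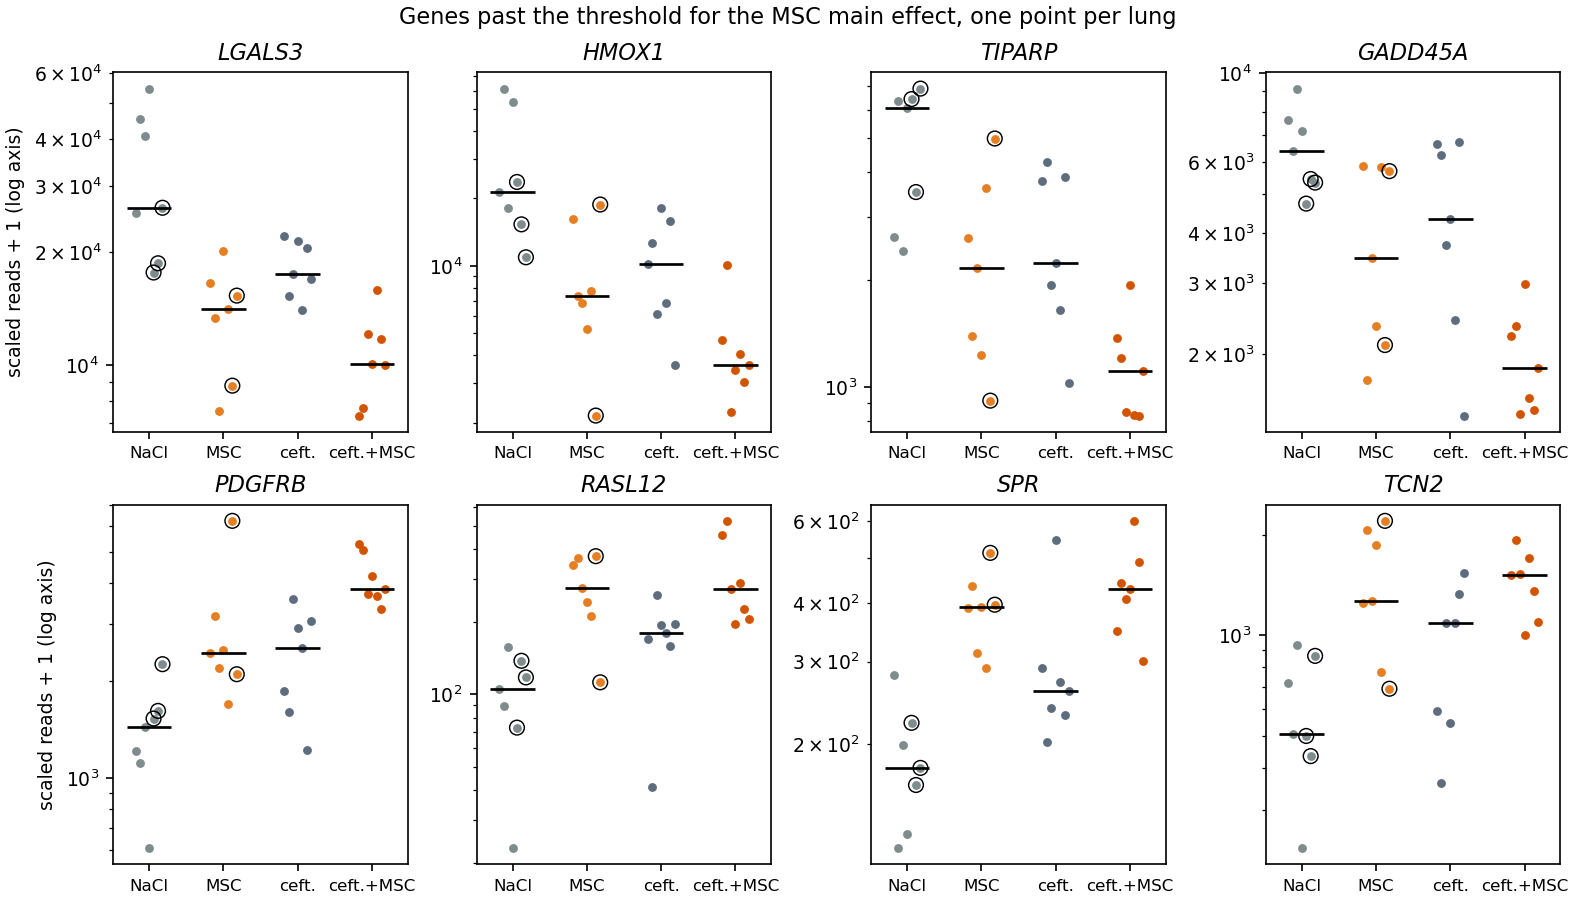
Each point is 1 lung, with scaled reads + 1 on a log y axis and the 4 groups on the x axis, and the line is the group median. Black circles mark libraries whose title ends in PG. LGALS3, HMOX1, TIPARP and GADD45A in the upper row lie lower with MSC in both arms, and PDGFRB, RASL12, SPR and TCN2 in the lower row lie higher.

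Of the 46 genes, 35 had a symbol, and the 20 above were named for the size of their change. Of the 15 others 14 are given here, picked out after their values were seen. Those that rose were C6, a component of the complement membrane attack complex (1.70, SE 0.38), CEP152, a centriole scaffold (0.80, SE 0.19), CRTAP, a collagen-modifying cartilage protein (0.77, SE 0.18), PPIC, a cyclophilin (0.61, SE 0.14), TAB1, a partner of the kinase TAK1 (0.61, SE 0.14), BTRC, the adaptor that marks phosphorylated IkB for degradation (0.36, SE 0.08), and CCDC34, THAP3, GTF3C2, RELCH and GCHFR. Those that fell were ZNF410, a zinc finger transcription factor (-0.42, SE 0.08), ST3GAL1, a sialyltransferase (-0.69, SE 0.15), and SOWAHC (-1.53, SE 0.36). C6, CEP152 and SOWAHC had fewer than 50 scaled reads on average. C6 had a mean of 32.0 and SOWAHC of 10.3.

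Levels in healthy lung stand beside these as a description only, because the NaCl libraries enter both contrasts. With all 35 libraries scaled together, HMOX1 was at 1341 to 2397 (median 1937) scaled reads in healthy lungs, against a median of 20318 with NaCl and 3525 with both therapies. LGALS3 was at 7271 to 12216 (median 8399) in healthy lungs, 25119.7 at the median with NaCl, 13466 with MSC and 9979 with both. GADD45A was at 1292 to 2479 (median 1478) in healthy lungs, with medians of 6097, 3525 and 1789 in those 3 groups. These 3 genes were highest in NaCl lungs and nearest to the healthy range in lungs given both therapies. PDGFRB was at 3788 to 5852 (median 4718) in healthy lungs, with medians of 1367 with NaCl, 2337 with MSC and 3728 with both. C1QTNF2 was at 436 to 729 (median 671) in healthy lungs, above the medians of 184 with MSC and 219.8 with both. SPR went past it: 253 to 448 (median 312) in healthy lungs, 169.5 with NaCl, 379.8 with MSC and 425 with both. SPR medians with MSC were thus above the healthy median, while those of C1QTNF2 were below the healthy range.

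Within each antibiotic arm, the MSC contrast was estimated from the same 28 libraries. Without ceftaroline 89 genes passed (0.881%), 61 higher (0.604%) and 28 lower (0.277%) with MSC, and 19.8% had an unadjusted p under 0.05, 10.6% higher and 9.22% lower. With ceftaroline 7 passed (0.0693%), 6 higher (0.0594%) and 1 lower (0.00989%), and 10.4% had an unadjusted p under 0.05, 4.4% higher and 5.98% lower. The difference between the arms was tested directly, and 1 gene of 10107 passed (0.00989%), while 546 (5.4%) had an unadjusted p under 0.05, 2.34% with a higher and 3.07% with a lower MSC estimate under ceftaroline. Of the 46 genes of the main effect, 16 passed without ceftaroline and 0 with it. At an unadjusted p under 0.05 these were 45 and 39, and all 46 had the same sign in both arms, which their choice from the pooled effect partly fixes. Their median size was 0.91 without and 0.78 with ceftaroline, and 3 of the 46 had an unadjusted p under 0.05 for the difference. KLHL21 was one (-1.38 and -0.49) and NME6 another (1.20 and 0.41).

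The 2 arms share no library, so genes that passed in one can be looked up in the other. Of the 89 genes without ceftaroline, 64 (71.9%) had the same sign with it, against 68.1% of all genes tested. Of the 89, 9 (10.1%) also had an unadjusted p under 0.05 in that direction, against 8.55% of all genes. None of the 7 genes that passed with ceftaroline had the same sign without it. Across all 10107 genes, which are not independent replicates, the estimates of the arms had a Spearman rho of 0.472 and a Pearson r of 0.456. Within-arm counts also turned on single libraries. The 89 became 0 without NaCl replicate 3 or 4 or MSC replicate 2, 4 or 6, 3 without MSC replicate 3, 6 without NaCl replicate 7, 11 without NaCl replicate 2 and 20 without MSC replicate 1. It was 55 without NaCl replicate 6, 517 without NaCl replicate 1 and 671 without MSC replicate 7. Libraries of the other arm act only through the shared spread: the count was 36 without ceftaroline plus MSC replicate 1 or 5, 37 without replicate 6, 40 without replicate 7, 41 without replicate 4 or ceftaroline replicate 3, 52 without ceftaroline replicate 5, 54 without ceftaroline plus MSC replicate 2 and 163 without ceftaroline replicate 6. The 7 became 0 without ceftaroline replicate 1 or ceftaroline plus MSC replicate 3 or 5, 1 without ceftaroline replicate 2 or 5 or ceftaroline plus MSC replicate 4, 2 without ceftaroline replicate 3 or 6 or ceftaroline plus MSC replicate 2 or 6, 3 without ceftaroline plus MSC replicate 1, 4 without ceftaroline replicate 7 and 11 without ceftaroline plus MSC replicate 7.

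**Figure D3:**
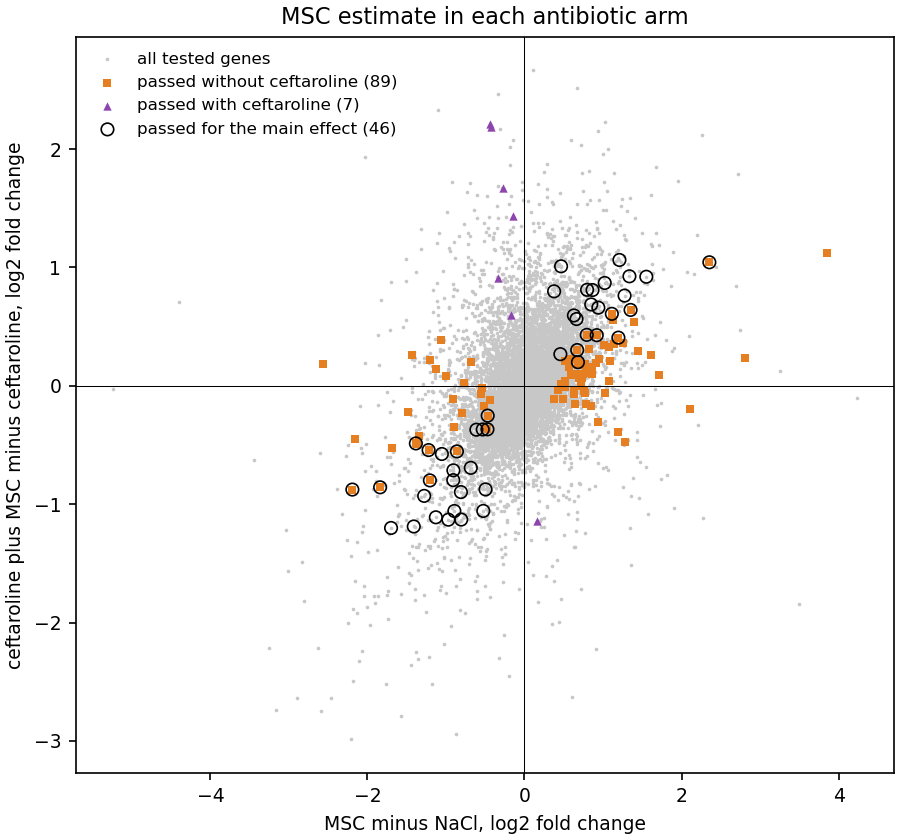
Each grey point is a gene, with the log2 fold change of MSC against NaCl on the x axis and of ceftaroline plus MSC against ceftaroline on the y axis. Open circles are the 46 genes of the main effect, all in the lower left or upper right. Orange squares are the 89 genes that passed without ceftaroline and purple triangles the 7 that passed with it, none of which lies in those 2 quadrants.

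SEC62 (ENSOCUG00000008720), a component of the protein translocon of the endoplasmic reticulum, was the gene whose MSC effect differed between arms. Without ceftaroline, SEC62 ran from 465 to 866 (median 488) scaled reads in NaCl lungs and from 362 to 647 (median 447) in MSC lungs. With ceftaroline, SEC62 ran from 423 to 555 (median 463) without MSC and from 803 to 1079 (median 871) with MSC. Lungs given both lay wholly above those given ceftaroline alone, while the other pair overlapped. The MSC estimate was -0.33 (SE 0.15) without and 0.91 (SE 0.15) with ceftaroline, a difference of 1.24 (SE 0.21, adjusted p = 0.0256). SEC62 did not pass without ceftaroline (adjusted p = 0.209) and passed with it (adjusted p = 0.0145). The test of this difference passed for no gene without MSC replicate 1, 2, 4 or 5, without ceftaroline replicate 1, 3, 4 or 5 or without ceftaroline plus MSC replicate 3, 5 or 6. It passed for 2 without NaCl replicate 1 or 3, MSC replicate 7 or ceftaroline replicate 6, for 3 without MSC replicate 3 and for 4 without NaCl replicate 2. It passed for 5 without NaCl replicate 6 or ceftaroline plus MSC replicate 7 and for 7 without NaCl replicate 5.

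The next 4 genes by p of the difference did not pass it, and 3 are given here. AMIGO3, a leucine-rich repeat adhesion protein, had -1.06 (SE 0.22) without and 0.39 (SE 0.22) with ceftaroline. C11orf68 had -0.49 (SE 0.19) and 0.72 (SE 0.19), and APAF1, the core of the apoptosome, 0.43 (SE 0.12) and -0.28 (SE 0.12). In each, the 2 estimates had opposite signs. The difference had an unadjusted p of 0.000102 for AMIGO3 and 0.000265 for APAF1.

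Ceftaroline, the second factor of the fit, had its own estimate for each of these genes. It draws on the same 28 libraries, so the values are set side by side only. HMOX1 had -1.45 for MSC and -1.15 for ceftaroline, LGALS3 -1.0 and -0.54, and PDGFRB 0.95 and 0.70. EXOC3L1 had 0.84 and 0.96, and SPR 0.86 and 0.39. Of the 46 genes of the MSC effect, 13 also passed for ceftaroline, of 10107 genes of which 1.23% did. Both terms use the same spread for each gene, so a gene of small spread passes more easily for both. No enrichment is read from this count.

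Inflammatory cytokines and chemokines included IL6, the gene with the lowest estimate of all 10107, but none of them passed. Of 32 listed, 23 were in the tables, 2 of these were at 0 and 20 were tested. Of these 20, 8 were lower at an unadjusted p under 0.05 and none higher, and their median log2 fold change was -0.96. Here and for the lists below, 13.9% of all genes were lower and 12.6% higher at that p. For fits without the 5 libraries that stood apart, the shares given above apply. CXCL8, the main neutrophil attractant, ran without ceftaroline from 23119.6 to 271402 (median 28032) scaled reads in NaCl lungs and from 394 to 43915 (median 9079) in MSC lungs. With ceftaroline, CXCL8 ran from 2804 to 232346 (median 16871) without MSC and from 453 to 8735 (median 4261) with MSC. In each group the highest lung had more than 10 times the reads of the lowest, and both pairs of groups overlapped. CXCL8 had a log2 fold change of -2.67 (adjusted p = 0.0520, SE 0.70).

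IL6, the cytokine of the acute phase response, ran without ceftaroline from 1871 to 46222 (median 18058) scaled reads in NaCl lungs and from 10.2 to 13082 (median 2367) in MSC lungs. With ceftaroline, IL6 ran from 26.3 to 11062 (median 3886) without MSC and from 6.54 to 5109 (median 758) with MSC. Lungs with almost no IL6 occurred once each in the MSC and ceftaroline groups and 3 times among lungs given both. IL6 had a log2 fold change of -2.95 (adjusted p = 0.0994, SE 1.09), and without the 5 libraries that stood apart -1.46 (adjusted p = 0.235). Those 5 had the least IL6, and all but ceftaroline replicate 7 were given MSC. Leaving them out therefore largely fixes in advance a smaller fall of IL6. In part this also applies to genes and lists that were low in the same libraries, here and below. Without those libraries CXCL8 was at -1.81 (adjusted p = 0.153), the list's median was -0.34, and 2 members were lower and 2 higher at an unadjusted p under 0.05. Of the other cytokines, IL1B, the inflammasome product, had -1.59 (adjusted p = 0.127, SE 0.65), CSF3, the granulocyte colony-stimulating factor, -2.55 (adjusted p = 0.144, SE 1.11), and CXCL5, a neutrophil chemokine, -1.85 (adjusted p = 0.0779, SE 0.62). TNF, a first-wave cytokine of macrophages, ran from 45.9 to 2795 (median 290.4) scaled reads in NaCl lungs and from 37.2 to 1479.6 (median 373) in MSC lungs, and had -0.99 (adjusted p = 0.365, SE 0.70). Of the 20 estimates 5 were above 0, among them CXCL9 (1.10, SE 0.82) and CXCL11 (0.94, SE 1.16), the interferon-induced chemokines.

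Genes of NF-kB feedback and signalling, some of them inhibitors of the pathway and others its subunits or activators, all had estimates below 0. Of 16 tested, 12 were lower at an unadjusted p under 0.05 and none passed. Among all genes 13.9% were lower at that p. TNFAIP3, the ubiquitin-editing inhibitor A20, ran without ceftaroline from 302 to 1517 (median 754) scaled reads in NaCl lungs and from 39.1 to 485 (median 231) in MSC lungs. With ceftaroline, TNFAIP3 ran from 30.6 to 883 (median 422) without MSC and from 24.1 to 389 (median 228) with MSC. All 14 MSC lungs were below their arm's median, and the ranges overlapped in both arms. TNFAIP3 had a log2 fold change of -1.70 (adjusted p = 0.0619, SE 0.52), NFKBIZ, an inducible nuclear IkB protein, -1.29 (adjusted p = 0.0553, SE 0.37), and NFKBIA, the classical inhibitor, -1.04 (adjusted p = 0.10, SE 0.39). The median of the list was -0.77, and -0.78 without and -0.84 with ceftaroline. With those 5 libraries left out, it was -0.52, with 7 members lower at an unadjusted p under 0.05.

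Neutrophil markers had a median of -1.59, and 7 of 10 tested were lower at an unadjusted p under 0.05, with none passed. Of all genes tested, 13.9% were lower at that p. The list is limited: 7 of its 18 members in the tables were at 0, among them MMP9, LCN2 and CSF3R. Summed over the list, neutrophil transcripts were at 181950 to 1711320 (median 900751) scaled reads in NaCl lungs, 35625 to 786799 (median 328531) in MSC lungs, 57970.2 to 1697210 (median 331091) in ceftaroline lungs and 20209 to 579396 (median 129193) with both. The groups overlapped throughout. CAMP, the cathelicidin of neutrophil granules, ran without ceftaroline from 7111 to 42629.7 (median 16273) scaled reads in NaCl lungs and from 196 to 10596 (median 3449) in MSC lungs. With ceftaroline, CAMP ran from 124 to 15061 (median 3699) without MSC and from 57.2 to 2979 (median 256) with MSC. CAMP had a log2 fold change of -2.73 (adjusted p = 0.060, SE 0.82) and all 14 MSC lungs were below their arm's median. S100A8, a subunit of calprotectin, had -1.52 (adjusted p = 0.102, SE 0.57), and MMP8, a neutrophil collagenase present at a mean of 9.28 scaled reads, -1.76 (adjusted p = 0.0602, SE 0.53). Without the 5 libraries that stood apart, S100A8 was at -0.75 and the list's median at -0.85, with 3 members lower at an unadjusted p under 0.05. The part of neutrophil transcripts in the cytokine and NF-kB values was not tested.

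**Figure D4:**
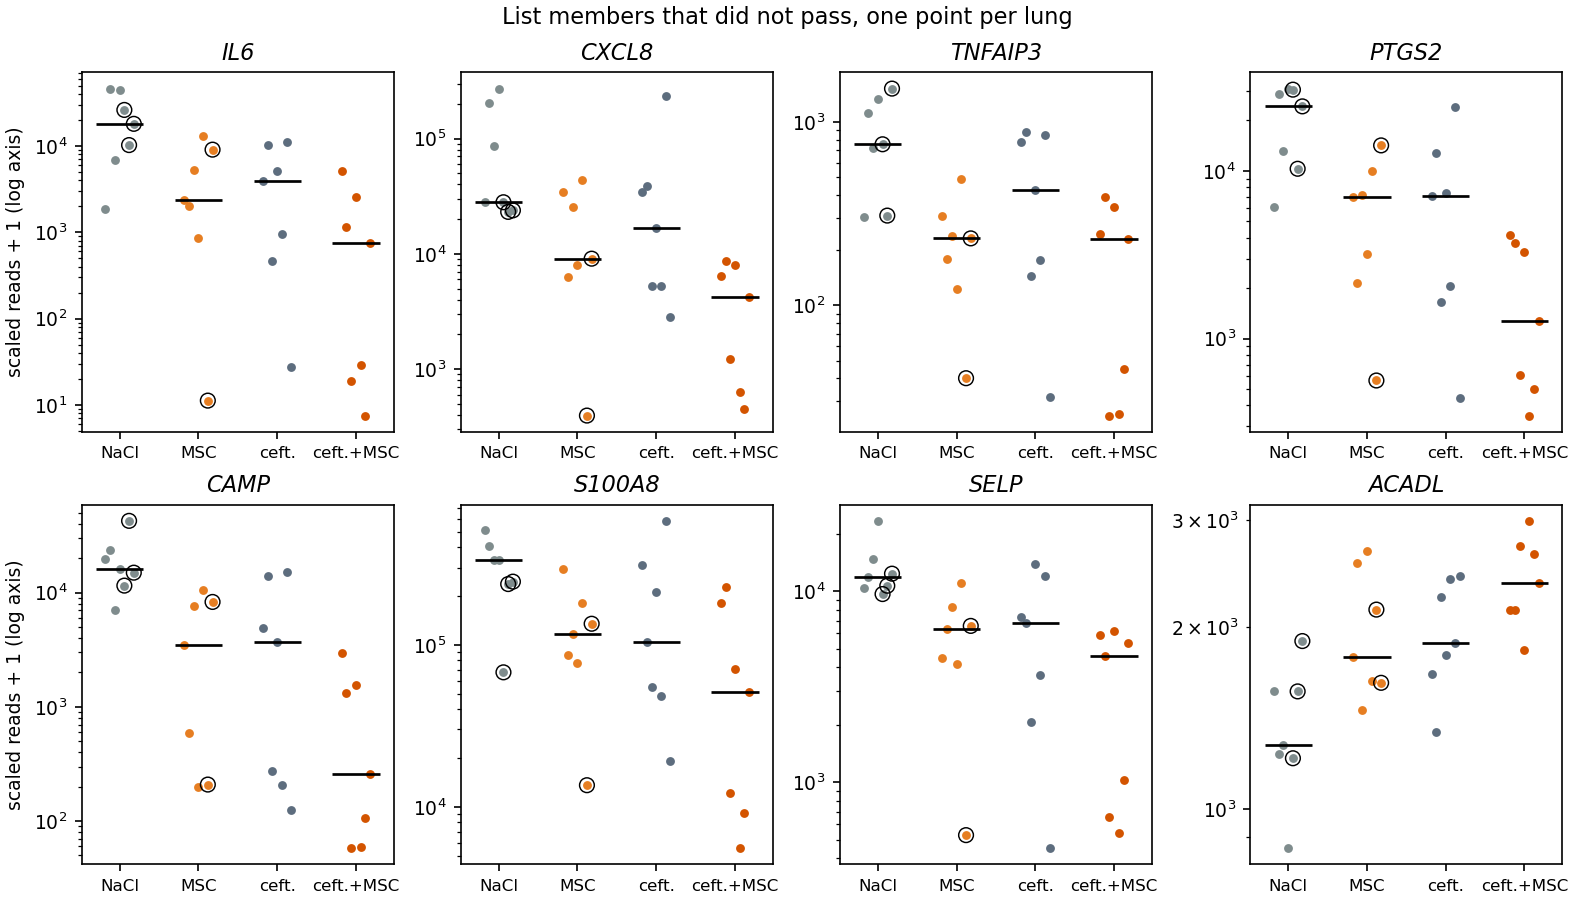
Each point is 1 lung, with scaled reads + 1 on a log y axis, the 4 groups on the x axis, the group median as a line and PG libraries circled. IL6, CXCL8, TNFAIP3, PTGS2, CAMP, S100A8 and SELP have lower medians and ACADL higher medians with MSC in both arms, with overlap in every panel, and none passed.

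Genes of resolution and repair had estimates in both directions. Of 18 tested, 7 were lower and 2 higher at an unadjusted p under 0.05, and the median was -0.67. LGALS3, 1 of the 7 lower members, passed. Among all genes 13.9% were lower and 12.6% higher at that p, so the count of higher members is no more than that share. PTGS2, the inducible cyclooxygenase, ran without ceftaroline from 6124 to 30954 (median 24252) scaled reads in NaCl lungs and from 562 to 14192 (median 6998) in MSC lungs. With ceftaroline, PTGS2 ran from 444 to 23976 (median 7131) without MSC and from 347 to 4144 (median 1266) with MSC. PTGS2 had a log2 fold change of -1.87 (adjusted p = 0.0562, SE 0.54), with all 14 MSC lungs below their arm's median. ANXA1, the glucocorticoid-induced annexin that limits neutrophil entry, had -0.76 (adjusted p = 0.0520, SE 0.20), and IL10, which restrains inflammation, -1.34 (adjusted p = 0.148, SE 0.59). TNFAIP6, the rabbit gene of TSG-6, had -1.29 (SE 0.56), AREG, an epithelial growth factor, -1.33 (SE 0.46), and IL4R -0.77 (SE 0.27). The 2 higher members were ANGPT1, a ligand that stabilizes vessels (1.04, SE 0.44), and FGF10, an epithelial growth factor of lung mesenchyme (0.79, SE 0.37). In the 23 libraries that did not stand apart, the list's median was -0.38, with 6 members lower and none higher at that p.

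Stress responses lay mostly below 0. Of 12 genes of growth arrest and apoptosis, 6 were lower at an unadjusted p under 0.05 (median -0.66), and GADD45A, 1 of these 6, passed. SFN, the epithelial 14-3-3 protein, was at -1.36 (adjusted p = 0.0655, SE 0.42). PLK3, a stress kinase, was at -1.15 (SE 0.38) and FAS, the death receptor, at -0.86 (SE 0.41). All 11 heat shock and chaperone genes had estimates below 0 and 8 an unadjusted p under 0.05 (median -0.50), without any that passed. BAG3, a cochaperone of HSP70, ran from 1551 to 11099.5 (median 5384) scaled reads in NaCl lungs and from 1408 to 2568 (median 1999) in MSC lungs. With ceftaroline, BAG3 ran from 1142 to 4823 (median 2514) without MSC and from 1252 to 2333 (median 1831) with MSC. MSC lungs were tightly grouped near the lower end of a wide NaCl range, and BAG3 had a log2 fold change of -0.93 (adjusted p = 0.0529, SE 0.25). By limma BAG3 passed without ceftaroline, at -1.37 (SE 0.34) with an adjusted p of 0.0493, and had -0.50 (SE 0.34) with it. The difference between the arms did not pass for BAG3. CHORDC1, a cochaperone of HSP90, had -0.78 (adjusted p = 0.0562, SE 0.23). With the 5 libraries that stood apart left out, the chaperone median was -0.56, with 6 members lower at an unadjusted p under 0.05.

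Of 14 antioxidant and haem genes, 5 were lower and 1 higher at an unadjusted p under 0.05 (median -0.22). HMOX1, 1 of the 5 lower members, passed. GCLC, the catalytic subunit of glutathione synthesis, had -0.90 (adjusted p = 0.0657, SE 0.28), GCLM, its modifier, -0.82 (SE 0.26), and SLC7A11, the cystine importer, -1.31 (SE 0.45). CAT, catalase, was the higher one (0.45, SE 0.16). NQO1, another target of the same transcription factor NRF2, had -0.29 (SE 0.25), and NFE2L2, the gene of that factor, -0.25 (SE 0.16). Members of the integrated and endoplasmic reticulum stress list had a median of -0.31, with 4 of 11 lower at an unadjusted p under 0.05, led by DNAJB9, a chaperone of the endoplasmic reticulum (-0.56, adjusted p = 0.0606, SE 0.17), and HSP90B1 (-0.42, adjusted p = 0.0987, SE 0.15). The hypoxia list had a median of -0.38 and 2 of 14 lower at that p, NDRG1 (-0.68, adjusted p = 0.0749, SE 0.22) and HIF1A itself (-0.64, adjusted p = 0.164, SE 0.29). That count is near the 13.9% of all genes that were lower at that p.

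In energy metabolism, glycolysis and fatty acid oxidation had medians of opposite sign and no member that passed. Of 11 glycolysis genes all had estimates below 0 and 5 an unadjusted p under 0.05 (median -0.56). HK2, the inducible hexokinase, ran from 3445 to 7096 (median 5818) scaled reads in NaCl lungs, 1249 to 7073 (median 3663) in MSC lungs, 3150.1 to 6334 (median 4849) in ceftaroline lungs and 1962 to 4874 (median 2821) with both, and had -0.59 (adjusted p = 0.0787, SE 0.20). HK1 had -0.58 (adjusted p = 0.10, SE 0.22), and SLC2A1, the glucose transporter GLUT1, -0.99 (SE 0.37). Without the 5 libraries that stood apart the glycolysis median was -0.33 and no member had an unadjusted p under 0.05. Without the PG libraries it was -0.66, with 8 members lower at that p, against 13.8% of all genes.

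Of 11 fatty acid oxidation genes 10 had estimates above 0 and 7 were higher at an unadjusted p under 0.05 (median 0.41). ACADL, the long-chain acyl-CoA dehydrogenase, ran without ceftaroline from 861 to 1893 (median 1276) scaled reads in NaCl lungs and from 1458 to 2672 (median 1781) in MSC lungs. With ceftaroline, ACADL ran from 1341 to 2422 (median 1878) without MSC and from 1831 to 2993 (median 2366) with MSC. The ranges overlapped in both arms, and 13 of 14 MSC lungs were above their arm's median. ACADL had 0.41 (adjusted p = 0.0559, SE 0.12), and 0.37 without the 5 libraries that stood apart. CPT2, which completes carnitine import, had 0.41 (adjusted p = 0.0967, SE 0.15). In the 23 libraries that did not stand apart, the median was 0.34, with 5 members higher at an unadjusted p under 0.05, and without the PG libraries 0.35, with 7, against 11.5% of all genes in that fit.

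Of 16 nuclear genes of oxidative phosphorylation, 5 were higher at an unadjusted p under 0.05 without passing, all of complex I, led by NDUFB3 (0.38, adjusted p = 0.0537, SE 0.11). The share of all genes higher at that p was 12.6%. NDUFS1, the largest complex I subunit, had -0.07 (adjusted p = 0.667, SE 0.10), and the median of the list was 0.17. Of the mitochondrial biogenesis list 4 of 8 were lower at an unadjusted p under 0.05 (median -0.23), among them SIRT1, a deacetylase (-0.56, adjusted p = 0.0620, SE 0.17), and NRF1, a transcription factor of respiratory genes (-0.36, adjusted p = 0.0808, SE 0.12). PPARGC1A, the coactivator PGC-1alpha, was not tested, at 1 to 23 recovered reads a library.

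Mitochondrial dynamics (8 tested, median -0.04) and mitophagy (6 tested, median -0.03) had no member with an unadjusted p under 0.05. In the first, the lowest p belonged to YME1L1, an inner membrane protease (-0.19, SE 0.12), and MIEF1, a receptor for fission (-0.22, SE 0.21). In the second they belonged to PINK1, the kinase that marks damaged mitochondria (0.32, adjusted p = 0.329, SE 0.21), and BNIP3L (-0.27, SE 0.28). The citric acid cycle had 3 of 9 members higher and 1 lower at that p (median -0.05), with SUCLG2 (0.22, SE 0.07) and DLAT (0.38, SE 0.15) first by p.

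Stromal and vascular genes held 1 gene that passed, PDGFRB, in the list of smooth muscle and pericyte markers (9 tested, 3 higher at an unadjusted p under 0.05, median 0.51). KCNJ8, a pericyte potassium channel, ran from 89.7 to 285 (median 162) scaled reads in NaCl lungs and from 105 to 460.4 (median 289.8) in MSC lungs. With ceftaroline, KCNJ8 ran from 136 to 311 (median 207) without MSC and from 124 to 527 (median 389) with MSC, and overlap remained in both arms. KCNJ8 had 0.80 (adjusted p = 0.0553, SE 0.23), and ABCC9, its partner subunit, -0.19 (SE 0.32). RGS5, another pericyte marker, had 0.24 (SE 0.19), and the contractile genes ACTA2 and MYH11 had 0.87 (SE 0.47) and 0.51 (SE 0.45). CSPG4 and NOTCH3 were at 0. The summed list was at 3528 to 46109.6 (median 6152) scaled reads in NaCl lungs, 7335 to 24017 (median 12004) in MSC lungs, 5066 to 11221 (median 6434) in ceftaroline lungs and 7762 to 30012 (median 10479.9) with both. Its part in the PDGFRB result was not tested.

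Among fibroblast and matrix genes (11 tested, none passed, median 0.34), COL3A1, a fibrillar collagen chain, ran from 1357 to 7175 (median 2864) scaled reads in NaCl lungs and from 1589 to 17974 (median 6757) in MSC lungs. With ceftaroline, COL3A1 ran from 826 to 19866 (median 2218) without MSC and from 10552 to 20606 (median 13749) with MSC, where all 7 lungs were above the median of every other group. It had 1.32 (adjusted p = 0.0840, SE 0.46), COL1A2 0.95 (adjusted p = 0.118, SE 0.38), TIMP1 -0.91 (SE 0.44) and FN1, fibronectin, -0.39 (SE 0.17), so 3 members were higher and 2 lower at an unadjusted p under 0.05. Of 13 endothelial markers none passed, with a median of 0.02, and 4 were lower at that p. They were the adhesion molecules PECAM1 (-0.59, adjusted p = 0.0770, SE 0.20) and SELP (-1.21, adjusted p = 0.123, SE 0.49), with CDH5 (-0.46, SE 0.19) and SELE (-1.16, SE 0.57), and TIE1, a vascular receptor, was higher (0.34, SE 0.16). KDR, a receptor of vascular endothelial growth factor, had 0.04 (SE 0.20) and VWF, von Willebrand factor, 0.02 (SE 0.22).

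Antigen presentation and immune cell lists had no member that passed. Of 10 MHC class II genes 9 had estimates above 0 and 2 an unadjusted p under 0.05 (median 0.33), CIITA, the master regulator of class II (0.71, adjusted p = 0.0985, SE 0.26), and HLA-DMA (0.68, adjusted p = 0.186, SE 0.33). Of all genes tested, 12.6% were higher at that p. Class II genes come in similar copies whose reads the counting may divide. CIITA ran from 196 to 874 (median 316) scaled reads in NaCl lungs, 519 to 2129 (median 681) in MSC lungs, 391 to 1852 (median 988) in ceftaroline lungs and 753 to 1659 (median 1350.3) with both. Of 17 monocyte and macrophage markers 2 were higher and 1 lower at an unadjusted p under 0.05 (median 0.18), shares no larger than the 12.6% and 13.9% of all genes, with the complement component C1QA at 0.74 (adjusted p = 0.0810, SE 0.25) and the endotoxin coreceptor CD14 at -0.69 (adjusted p = 0.183, SE 0.33). With the 5 libraries that stood apart left out, 4 class II genes (median 0.45) and 6 macrophage markers (median 0.42) were higher at that p. T and NK cell markers (7 tested, median -0.22) were led by CD2 (-0.41, SE 0.21) and CD247 (-0.31, SE 0.22), and B and plasma cell markers (9 tested, median -0.32) by BLK, a B cell kinase (-0.25, SE 0.10), and POU2AF1, a B cell coactivator (-0.46, SE 0.24). CD3E, LCK and CD22 were at 0.

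The cell cycle list had 5 of 15 members higher at an unadjusted p under 0.05 (median 0.16), all of them subunits of the MCM helicase. The share of all genes higher at that p was 12.6%. MCM5 had 0.52 (adjusted p = 0.0999, SE 0.19) and MCM2 0.44 (adjusted p = 0.122, SE 0.18), while mitotic members such as PLK1 (0.14, SE 0.21), AURKB (-0.10, SE 0.28) and CCNB2 (0.05, SE 0.26) were near 0. MCM2 was above its arm's median in all 14 MSC lungs. Without the PG libraries 2 members were higher at that p, near the 11.5% of all genes in that fit.

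**Figure D5:**
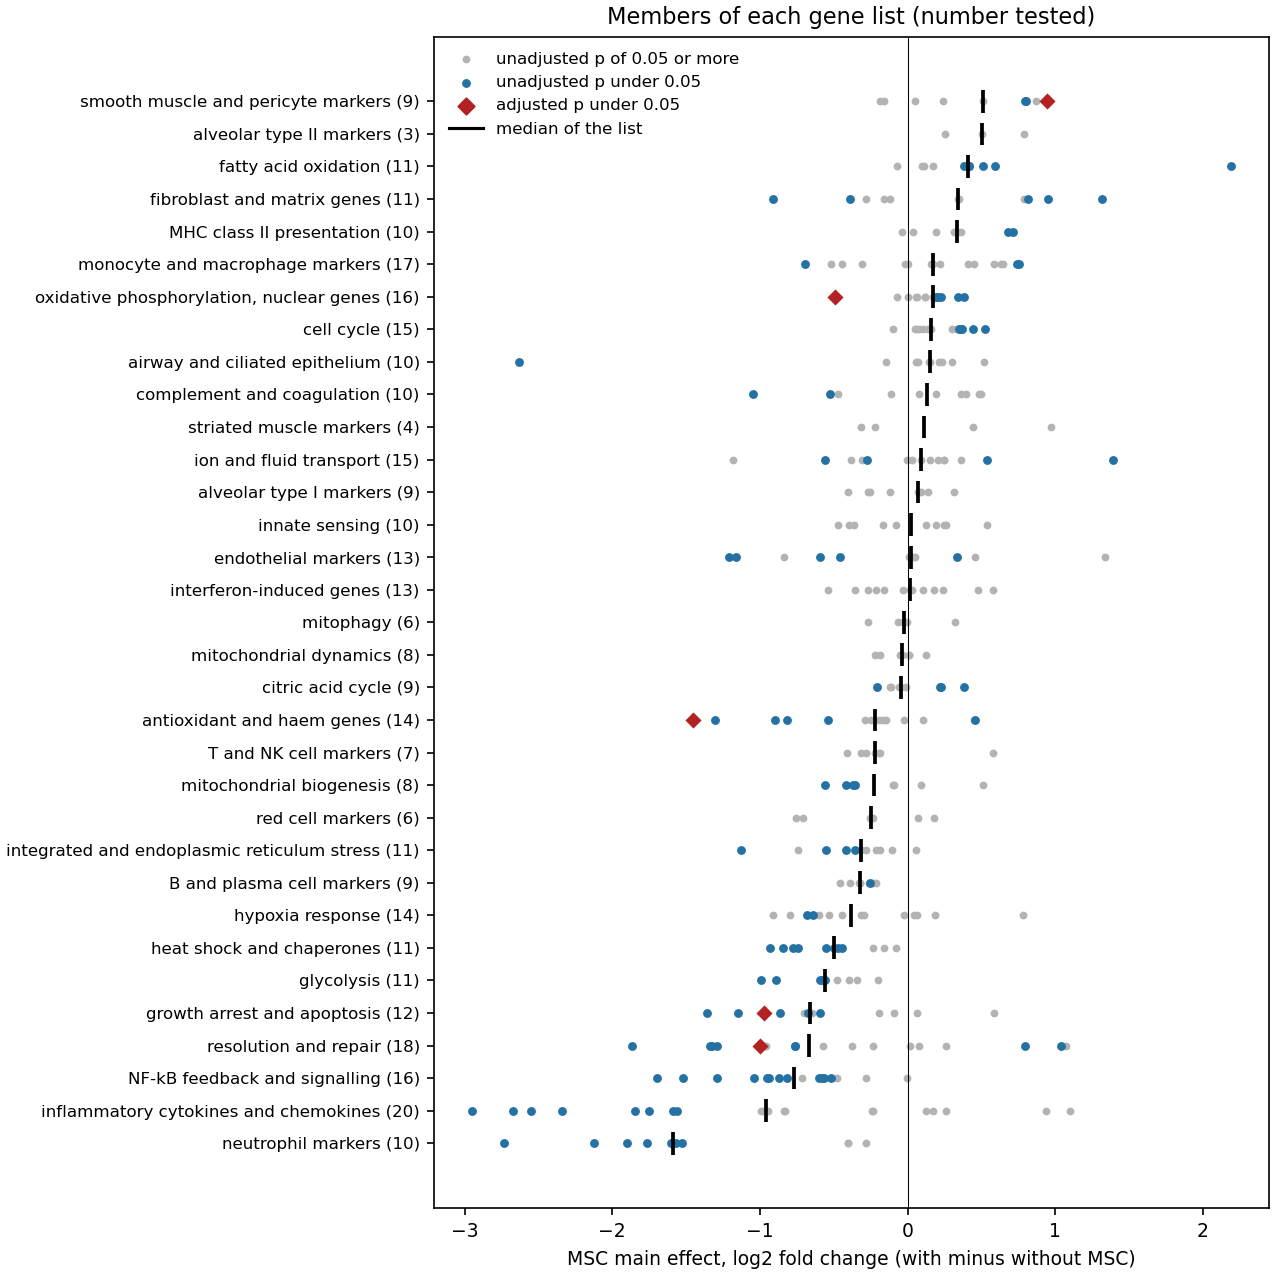
Each point is a tested member of 1 of 33 gene lists (y axis, number tested in brackets), with its log2 fold change for MSC on the x axis, ordered by the list's median. Neutrophil markers (-1.59), cytokines (-0.96) and NF-kB genes (-0.77) have the lowest medians, and smooth muscle and pericyte markers (0.51) the highest. The 5 red diamonds are list members that passed.

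The epithelial and remaining lists had medians between -0.24 and 0.50. In the epithelium SFTPB had 0.50 (adjusted p = 0.495, SE 0.46), and all 3 tested type II markers had estimates above 0 (median 0.50, ETV5 0.25 with SE 0.24), with none at an unadjusted p under 0.05. Type I markers had a median of 0.07 (GPRC5A -0.40 with SE 0.44, CLIC5 0.31 with SE 0.36), and without the 5 libraries that stood apart -0.62, with 4 of 9 lower at that p. Airway genes had a median of 0.15, with DNAH5, a dynein of cilia, at 0.52 (SE 0.42), and CFAP61, a gene of cilia, at -2.63 (adjusted p = 0.171, SE 1.23). Interferon-induced genes had a median of 0.01 (DDX60 0.58 with SE 0.42, IRF1 -0.54 with SE 0.53), and without the 5 libraries all 13 had estimates above 0, with a median of 0.37. Innate sensing had a median of 0.02 (TLR3 0.54 with SE 0.28, IRAK4 -0.16 with SE 0.09). In complement and coagulation (median 0.13) F3, tissue factor, had -1.05 (adjusted p = 0.0734, SE 0.34) and PLAU, urokinase, -0.52 (SE 0.20). In ion and fluid transport (median 0.09) SLC12A2, the basolateral chloride importer, had 0.54 (adjusted p = 0.0810, SE 0.18) and did not pass. Red cell markers had a median of -0.24 (ALAS2 -0.71 with SE 0.39, HBB2 -0.76 with SE 0.42), and -0.56 without the PG libraries, with 3 of 6 lower at an unadjusted p under 0.05, against 13.8% of all genes in that fit. The median was 0.11 for striated muscle markers, over 4 genes (TNNT2 0.97 with SE 0.69, RYR2 0.44 with SE 0.37).

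The authors tested each arm alone, and their deposited tables can be set beside these values for single genes. For LGALS3 the authors' deposited table gives a log2 fold change of -1.25 without ceftaroline (adjusted p = 0.00723), and that for the other arm -0.75 (adjusted p = 0.0146). For CXCL8 the authors' deposited table gives -2.37 without ceftaroline (adjusted p = 0.0483), and that for the other arm -3.51 (adjusted p = 0.0114). For IL6 the authors' deposited table gives -2.23 without ceftaroline (adjusted p = 0.10), and for the other arm -1.72 (adjusted p = 0.486). For SEC62 the authors' deposited table gives -0.33 without ceftaroline (adjusted p = 0.352) and 0.93 with it (adjusted p = 4.04e-13).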

How the data were processed

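Rabbit lung RNA was sequenced in 35 libraries, and the 28 from lungs with pneumonia and ventilation were compared. Per the submitters' processing notes reads went through TopHat2 2.1.1, featureCounts 1.5.2 and DESeq2 1.24.0, and per the labels' protocols the libraries were stranded. No coordinates are printed: the build is not given in the sources used here, nor is the annotation. The authors deposited a signal per gene and library, reads divided by a size factor, in 1 table per pair of groups, with a log2 fold change, its Wald statistic (a score) and p-values, as the deposited columns show. All values (100% within a tolerance of 1e-06) were whole multiples of 1 read, so reads were recovered, and the 21 library columns that occur in more than 1 table were identical there. Of 23669 genes 16304 had a symbol, taken from the tables. 11 symbols that had been turned into dates in some tables were read from another.

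Reads of the 28 libraries were scaled jointly by TMM (edgeR 4.0.16), and genes with at least 10 scaled reads in 7 libraries were kept. limma 3.58.1 (R 4.3.3) with an intensity trend was fitted to log2(scaled reads + 1), with MSC and ceftaroline as terms, a pseudocount of 1 that understates changes of low genes, two-sided tests and Benjamini-Hochberg adjustment over all 10107 genes (threshold 0.05). Because the deposited unit is not counts, edgeR's quasi-likelihood test and DESeq2 1.42.0 on recovered reads were alternatives. The scripts were tested on simulated data. Replicates are libraries with titles of their own, numbered by accession order. No label states outright that each is a separate animal, so p-values measure the spread between these lungs. Whether title numbers pair libraries was not settled, and the main fit used no block. Of 7 same-numbered pairs in the ceftaroline arms 4 correlated above 0.1, with a median of 0.224 against -0.0389 for other pairs. Between NaCl and MSC lungs these medians were 0.391 (3 pairs) and 0.149. Same-numbered medians were also the higher ones for both therapies against NaCl or MSC, and the lower ones for ceftaroline against NaCl or MSC. Named genes were the 10 largest rises and falls among passed genes that have symbols and average 50 or more scaled reads, the 5 lowest p for the difference between arms, the 2 lowest p of each of 33 lists, and a fixed panel of 18; a few genes the rule names are not reported here. The comparison, lists and rules were chosen with earlier results of these data known. List counts carry no test.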

Additional observations from a re-analysis of the deposited data

Results flagged for a closer look

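A lung stood apart from the other 6 of its group in 20 of 384 pairs of a gene and a group (5.21%), by the gap to its nearest neighbour as a share of the group's range on the log2 scale. Chance gives about 1 in 20 such pairs, so the values are listed without any pattern read from them.

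Among genes that rose with MSC, RASL12 was lowest in NaCl replicate 4, at 22.1 scaled reads (next 71.7), and in ceftaroline replicate 2, at 40.1 (next 157). SPR was highest in ceftaroline replicate 4, at 546 scaled reads (next 289). EXOC3L1 was lowest in NaCl replicate 4, at 67.9, and ACAD10 in NaCl replicate 6, at 33.98. NME6 was highest in ceftaroline plus MSC replicate 3, at 200.8. Among genes that fell, KSR1 was highest in ceftaroline replicate 6, at 947 scaled reads (next 275). KLHL21 was highest in MSC replicate 7, at 447, and so was ZHX2, at 204. HDGF was lowest in MSC replicate 6, at 484.

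MSC replicate 6, one of the libraries that stood apart on the first principal component, was also lowest for CXCL8 (394 scaled reads, next 6287), SELP (526, next 4136) and IL6 (10.2, next 849.9). Ceftaroline replicate 7, another of them, was lowest for IRF1 (854, next 3951) and TNF (64.3, next 455). KCNJ8 was lowest in MSC replicate 7, at 105, and S100A8 in NaCl replicate 5, at 67594. NDRG1 was highest in MSC replicate 1, at 1347, DNAH5 in MSC replicate 3, at 61.1, and MMP8 in ceftaroline plus MSC replicate 2, at 1.21 scaled reads where the other 6 lungs had 0.

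The MSC effect on SEC62 differed between the arms by 1.24 on the log2 scale in a test of the difference itself (SE 0.21, limma adjusted p = 0.0256).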

How the results depend on the processing

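The number of genes that passed varied widely between the alternatives. All of the 46 that could be fitted kept their sign and an unadjusted p under 0.05 in each alternative, with a highest adjusted p of 0.153. Because the 46 were chosen for a low p in these same libraries, that sign and unadjusted p were largely fixed in advance. Of the values recomputed for the 96 named genes, 3558 kept direction and side of the threshold, 445 were weaker, 213 stronger and 6 reversed. Most of the 96 had not passed, and only a gene that passed could become weaker. HMOX1, RASL12 and TIPARP each lost the threshold in 23 of 44 alternatives, SPR in 7 and LGALS3 in 5.

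The counts are given in the order MSC main effect, difference between arms, MSC effect without and MSC effect with ceftaroline. They were 0, 0, 0 and 0 at an adjusted p under 0.01 and 1181, 2, 386 and 12 under 0.1. With DESeq2 they were 1088, 43, 494 and 41, and with voom quality weights 711, 8, 362 and 2. With the PG ending as a covariate they were 656, 18, 178 and 13, and with log2 library total as a covariate 224, 0, 0 and 0. Without the 5 libraries that stood apart, an alternative chosen after seeing the data, they were 2, 0, 0 and 0. Without the PG libraries the main effect had 2, the difference 38 and the effect with ceftaroline 15.

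For the main effect alone, edgeR's quasi-likelihood test called 195, DESeq2 size factors 217, and the arms averaged from the fit with interaction 94. A fit with no ceftaroline term called 0, a minimum size of 1 on the log2 scale left 13, and no filter on low values left 5. The last 2 gave 36 and 42 for the effect without ceftaroline. The cause of these shifts was not tested. Leaving out 1 library gave 0 to 1244 for the main effect, 0 to 7 for the difference, 0 to 671 without ceftaroline and 0 to 11 with it.

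With title number as a replicate block over 23 libraries, the counts were 0, 23, 17 and 15. These 23 are the libraries without the PG ending, so their fit with no block is the one given above. It gave 2 for the main effect, 38 for the difference and 15 with ceftaroline. Among the values recomputed for named genes, that fit was counted under both names. Whether the numbers pair libraries was not settled. Same-numbered ceftaroline pairs correlated between -0.38 and 0.488, with a median of 0.224 against -0.0389 for other pairs.

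APAF1 reversed to -0.0274 without the PG libraries, the same as in the 23 libraries with no block, and to -0.0446 with the block. Without the 5 libraries that stood apart, CLIC5 was at -0.0113, IRF1 at 0.15 and NDUFS1 at 0.0018. Genes near 10 scaled reads, such as MMP8, are limited by depth.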

Other observations

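CFAP61, a gene of cilia, was split within groups. At least 1000 scaled reads of CFAP61 were found in 5 of 7 NaCl lungs, 0 of 7 MSC lungs, 2 of 7 ceftaroline lungs and 2 of 7 lungs given both. In all other lungs CFAP61 was between 3.61 and 34.5 scaled reads, and where it was high it lay between 1537 and 5416. Its log2 fold change of -2.63 over both arms (limma adjusted p = 0.171, SE 1.23) did not pass. By the authors' deposited DESeq2 Wald tests, CFAP61 had -7.03 without ceftaroline (adjusted p = 5.52e-12) and -0.13 with it (adjusted p = 0.970). Other genes of cilia, such as DNAH5 (0.52, SE 0.42) and DNAI1 (0.30, SE 0.39), had main-effect estimates above 0.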
